A study of Danio rerio with 9 samples.

Results

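The crystallin gene family was examined in zebrafish embryos that carry mutations in npc2, which encodes a cholesterol-binding protein of the lysosome. Members were all gene IDs whose symbol in the names table began with crya, cryb or cryg, in any case, and cryptochromes were left out. This gave 60 of the 32520 gene IDs in the count table: 3 alpha, 13 beta, 26 gamma M2 copies, 15 other gamma genes, and 3 crybg genes, whose products carry a beta-gamma crystallin domain. Polyadenylated RNA was sequenced from embryos at 30 hours post fertilisation (hpf), in pools of 30 embryos, with 3 pools per genotype. The homozygous group was MZnpc2 m/m (maternal-zygotic mutants, with npc2 mutant in mother and zygote), the heterozygous group was Mnpc2 +/m (from mutant mothers, with 1 intact zygotic copy), and the wild-type group was npc2 +/+. The mutant embryos of both kinds were siblings, separated by how they looked, whereas wild-type embryos had other parents, the npc2 +/+ brothers and sisters of the mutants' parents. Wherever mutants were set against wild type, genotype, mother and clutch therefore differed at once and cannot be told apart.

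Crystallins are the abundant soluble proteins of the vertebrate lens, whose dense packing in elongated fibre cells gives the lens its transparency and refractive power. Alpha crystallins belong to the small heat shock proteins and act as chaperones, while beta and gamma crystallins share a Greek key fold and act as structural proteins. The gamma M crystallins are methionine-rich forms typical of aquatic vertebrates, and in zebrafish many near-identical M2 copies lie next to each other, so reads could be split among them. In humans, CRYBG1 is an actin-associated protein of epithelial cells and not a structural protein of the lens.

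The libraries held 42535508 to 69360234 counts in homozygous, 55144480 to 65070813 in heterozygous and 38564405 to 64100420 in wild-type pools. The NPC2 gene with the most counts (ENSDARG00000090912) stood at 34.1, 32.6 and 44.3 CPM (the count per 1000000 counts of a library, scaled by TMM) in homozygous pools, 144.2, 146.4 and 141.7 CPM in heterozygous pools, and 264.3, 255.6 and 278.5 CPM in wild-type pools, in the order of the labels. Another gene with the symbol NPC2 (ENSDARG00000096979) averaged 1.21, 1.41 and 1.96 CPM in homozygous, heterozygous and wild-type pools. Its homozygous pools lay below the wild-type pools, and its heterozygous pools overlapped them. Levels below are on this CPM scale, which is not divided by transcript length, so they compare pools and not genes. Differences are edgeR log2 fold changes ± standard error with p-values adjusted over all 20375 genes tested, and a call means an adjusted p under 0.05. The pools of a genotype were collected separately, but whether from different clutches is not stated, and the p-values reflect only how these pools varied. In whole embryos, fewer lens cells and less crystallin RNA per cell cannot be told apart.

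At 30 hpf most crystallin counts came from beta crystallins. Alpha, beta and gamma crystallins together took 0.141, 0.154 and 0.124% of all counts in homozygous pools, 0.152, 0.136 and 0.144% in heterozygous pools, and 0.154, 0.161 and 0.156% in wild-type pools. Beta crystallins made up 81.9 to 84.1% of these counts over the 9 libraries, other gamma genes 9.83 to 10.4%, and alpha crystallins 0.0367 to 0.0599%. The gamma M2 copies made up 5.87, 6.48 and 5.97% of crystallin counts in homozygous pools, 6.78, 7.0 and 6.65% in heterozygous pools, and 6.94, 7.32 and 7.70% in wild-type pools. Every homozygous pool had a smaller M2 share than every heterozygous or wild-type pool, and the heterozygous and wild-type pools overlapped; the shares were not tested.

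Of the 60 members, 32 passed the filter on low counts: 1 alpha, 12 beta, 11 gamma M2, 6 other gamma and 2 crybg genes. Another 16 had between 1 and 58 counts over all 9 libraries, and 12 had none. Both CRYAB genes, which encode alpha B crystallin, fell in the low class, with 8 and 2 counts in total (ENSDARG00000101380 and ENSDARG00000042621). CRYBB2 had 20 counts in total and crygm4 had 58. The genes with no counts were crygm2a, crygm2b, crygm2f, crybgx, crygs3, crygs4, crygm1, crygm3, crygm5, crygm6, crygm7 and 1 CRYGS gene (ENSDARG00000041171). A total of 3 counts in a library, the limit that a count of 0 allows, corresponded to 0.0433 to 0.0778 CPM. Most low counts were even, and if fragments were counted more than once the limit is higher than this.

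Summed by class, the beta and gamma crystallins had lower sums in homozygous pools than in wild-type pools, and the M2 copies had the smallest ratio of these classes. Alpha crystallins summed to 0.514, 0.691 and 0.608 CPM in homozygous pools and 0.673, 0.689 and 0.955 CPM in wild-type pools, which overlapped. Beta crystallins summed to 1178, 1266 and 1034 CPM in homozygous pools, 1269, 1138 and 1197 CPM in heterozygous pools, and 1279, 1341 and 1305 CPM in wild-type pools. Their means were 1159 ± 117, 1201 ± 65.7 and 1308 ± 31.1 CPM (SD, n = 3 each, homozygous, heterozygous and wild type), so the homozygous mean was 0.886 and the heterozygous mean 0.918 of the wild-type mean. Homozygous and heterozygous pools lay below all wild-type pools and overlapped with each other; without TMM scaling the homozygous pools also overlapped the wild-type pools.

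The M2 copies summed to 82.3, 98.0 and 73.7 CPM in homozygous pools, 103.7, 96.3 and 95.9 CPM in heterozygous pools, and 107.0, 118.5 and 122.8 CPM in wild-type pools. All homozygous and all heterozygous pools lay below the wild-type pools, with homozygous and heterozygous means at 0.729 and 0.850 of the wild-type mean. The other gamma genes summed to 140.1, 149.0 and 124.2 CPM in homozygous pools, 156.2, 140.5 and 147.4 CPM in heterozygous pools, and 153.8, 159.2 and 165.2 CPM in wild-type pools. Here the homozygous pools lay below the wild-type pools and the heterozygous pools overlapped both other groups. The crybg genes ran the other way, with 212.4, 211.5 and 219.1 CPM in homozygous pools, 184.3, 189.9 and 196.6 CPM in heterozygous pools, and 177.1, 176.3 and 178.9 CPM in wild-type pools, and the 3 genotypes did not overlap.

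**Figure D1:**
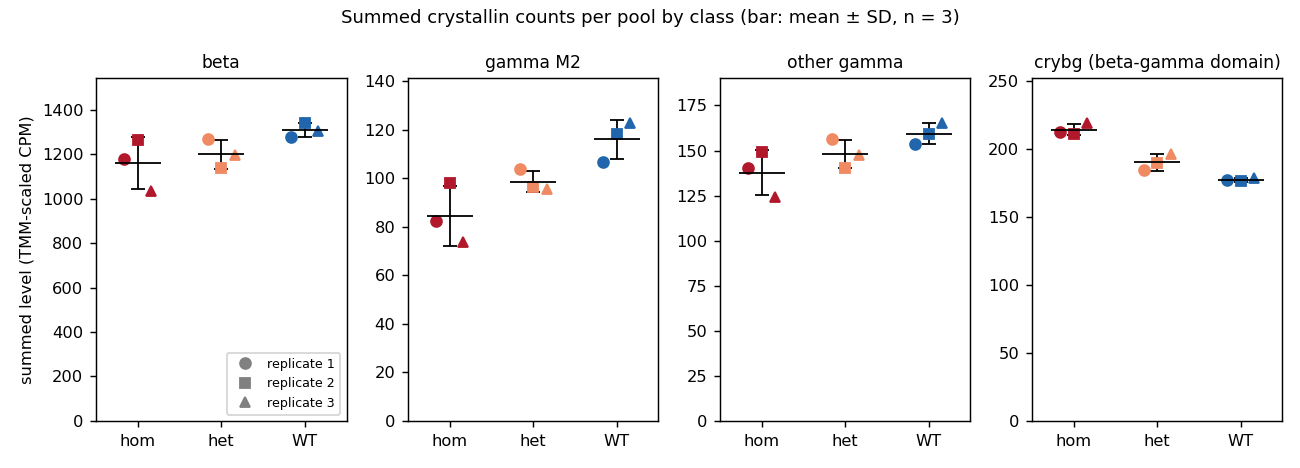
Summed TMM-scaled CPM of each crystallin class (y axes) in each pool (points) by genotype (x axis), with bars at the mean and error bars of 1 SD (n = 3). Beta, gamma M2 and other gamma sums were lower in all homozygous than in all wild-type pools, and crybg sums were higher.

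In homozygous against wild-type embryos, 14 of the 30 tested alpha, beta and gamma crystallins fell, 1 rose and 15 were not called. The gene that rose, CRYGN (ENSDARG00000102129), reached the count filter in no wild-type library and was tested only because of its mutant pools. Over all genes tested, 21.1% were called lower and 23.5% higher in this comparison (44.5% in all). The sign was negative for 28 of the 30, with a median log2 fold change of -0.29, against a median of 0.02 over all genes. In 13 of the 30 every homozygous pool lay below every wild-type pool and in 1 every one lay above, against 25.3% and 28.6% of all genes tested (53.9% without overlap). Because members shifted together between homozygous pools, these counts are not independent observations. Of the 14 genes that fell, 8 were called under each of the 19 other settings tried that could test them, and 6 lost the call under at least 1.

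Among beta crystallins, 6 of 12 fell and 6 were not called. CRYBA2 (ENSDARG00000030349), an acidic beta crystallin, had 61.5, 66.3 and 53.7 CPM in homozygous pools, 70.3, 66.3 and 69.7 CPM in heterozygous pools, and 76.2, 79.5 and 82.5 CPM in wild-type pools. All homozygous and all heterozygous pools lay below the wild-type pools. Its log2 fold change between homozygous and wild-type pools was -0.39 ± 0.06 (edgeR adjusted p = 1.02e-04). The other gene with the symbol CRYBA2 (ENSDARG00000041925) had 84.1, 89.5 and 73.2 CPM in homozygous pools, 85.1, 77.4 and 88.0 CPM in heterozygous pools, and 91.1, 95.4 and 103.3 CPM in wild-type pools. Its homozygous pools also lay below the wild-type pools (log2 fold change -0.23 ± 0.07, edgeR adjusted p = 0.0184), but the call was lost without homozygous replicate 3 (adjusted p = 0.0662), without wild-type replicate 3 (0.0889) and with the replicate block (0.0584).

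The beta A1 gene cryba1b had 174.6, 184.6 and 155.8 CPM in homozygous pools, 194.7, 173.1 and 178.9 CPM in heterozygous pools, and 193.7, 199.98 and 196.3 CPM in wild-type pools. Homozygous and wild-type pools did not overlap. It fell by 0.20 ± 0.06 on the log2 scale (edgeR adjusted p = 0.0118), and was not called without homozygous replicate 3 (0.0595). The beta A1-like gene cryba1l2 had 10.53, 13.0 and 8.46 CPM in homozygous pools, 12.0, 10.7 and 11.2 CPM in heterozygous pools, and 14.0, 13.6 and 15.4 CPM in wild-type pools. All mutant pools lay below the wild-type pools (homozygous log2 fold change -0.42 ± 0.12, edgeR adjusted p = 0.0121), and the call was lost without wild-type replicate 3 (0.0575). The beta B1-like crybb1l1 had 195.7, 217.8 and 171.0 CPM in homozygous pools, 215.8, 192.9 and 200.2 CPM in heterozygous pools, and 220.5, 230.6 and 224.9 CPM in wild-type pools. Its change of -0.21 ± 0.07 (edgeR adjusted p = 0.0313) was called in this fit but lost under 7 other settings, with adjusted p up to 0.103 without wild-type replicate 3.

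The beta crystallin with the lowest ratio to wild type was crybb1l3, singled out after its values were seen. It had 1.43, 1.508 and 1.496 CPM in homozygous pools, 1.98, 1.79 and 1.99 CPM in heterozygous pools, and 2.85, 3.01 and 3.01 CPM in wild-type pools. The 3 genotypes were fully separated, and the homozygous level was 0.499 of the wild-type level (log2 fold change -1.0 ± 0.15, edgeR adjusted p = 4.09e-05).

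CRYBB1, which encodes beta B1 crystallin, had a homozygous mean close to its wild-type mean. It had 219.0, 232.1 and 201.7 CPM in homozygous pools, 229.6, 203.2 and 224.2 CPM in heterozygous pools, and 230.3, 236.5 and 193.6 CPM in wild-type pools. The 3 genotypes overlapped, and wild-type replicate 3 was the lowest pool of all. The log2 fold change between homozygous and wild-type pools was -0.02 (95% interval -0.19 to 0.15, edgeR adjusted p = 0.890). Over the other settings it spanned -0.10 to 0.04 and was not called. The log2 fold changes of crybb1l2 and cryba1l1 were -0.21 and -0.12, with intervals of -0.44 to 0.02 and -0.26 to 0.01 that included 0. Under other settings crybb1l2 was called with DESeq2 (adjusted p = 0.0271). Without homozygous replicate 2, edgeR called crybb1l2 (adjusted p = 0.0321) and cryba1l1 (0.0309). CRYBA4 missed the threshold narrowly (-0.16 ± 0.06, edgeR adjusted p = 0.0512) and was called under 7 of the other settings. CRYBB3 and CRYBA1, each averaging under 1 CPM, were not called (edgeR adjusted p = 0.765 and 0.235).

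The alpha crystallin CRYAA, the chaperone of the lens, had few counts, with 36, 44 and 26 counts in homozygous pools, 42, 42 and 28 counts in heterozygous pools, and 26, 40 and 50 counts in wild-type pools. As scaled levels these averaged 0.604 ± 0.0887, 0.622 ± 0.104 and 0.739 ± 0.157 CPM (SD, n = 3 each), and the genotypes overlapped. The log2 fold change between homozygous and wild-type pools was -0.29, with an interval of -0.91 to 0.32 (edgeR adjusted p = 0.442), and smaller differences were not detectable at this depth.

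**Figure D2:**
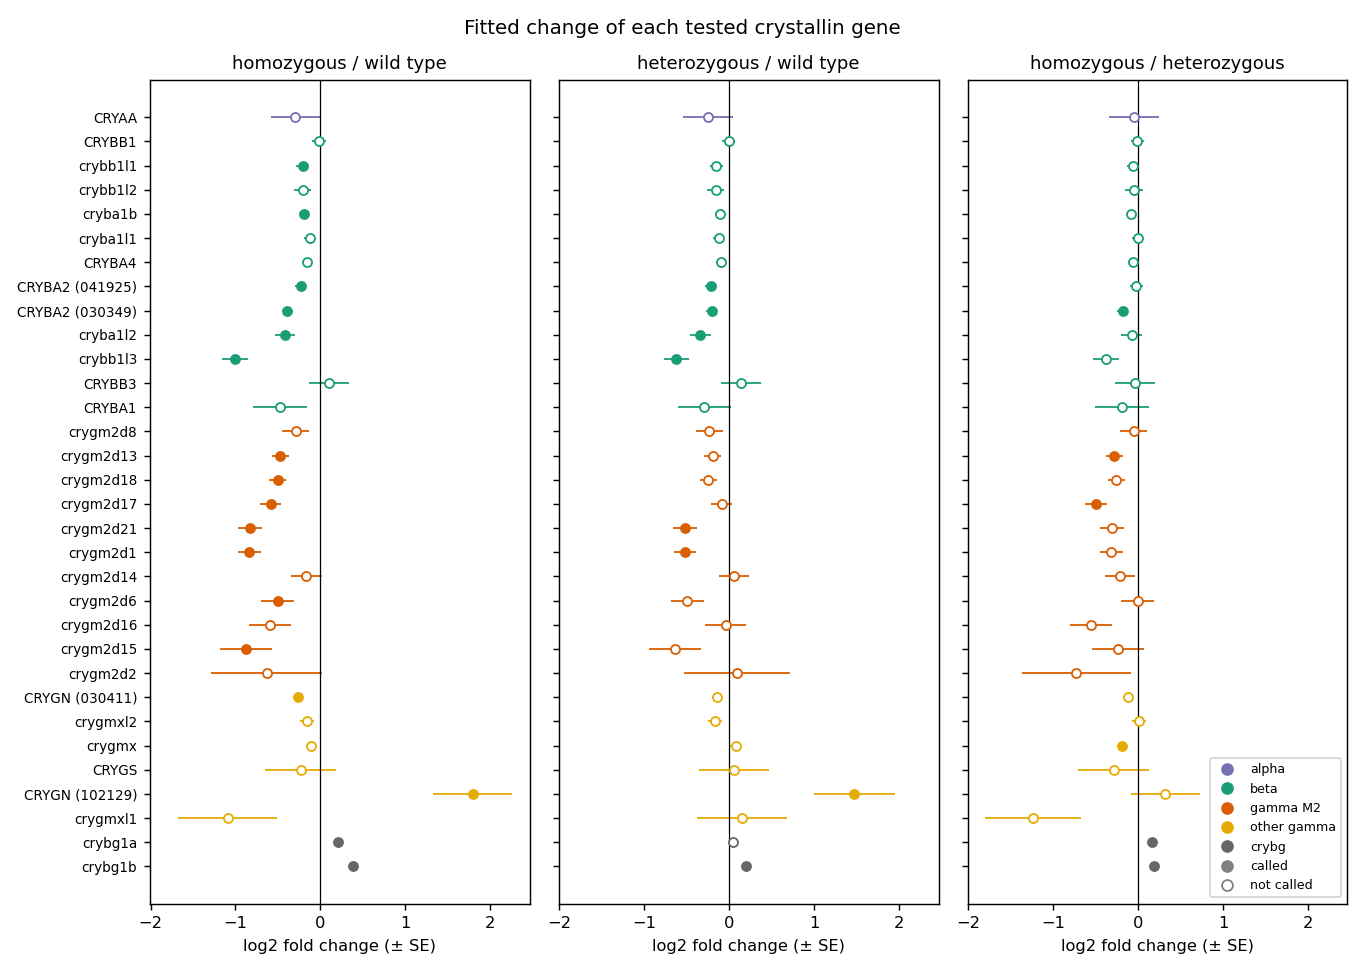
Log2 fold change (x axis) of each tested member (y axis) for the 3 pairs of genotypes (panels), with bars of 1 SE from edgeR and filled points for called genes. Most beta and gamma members lay left of 0 in homozygous against wild-type pools, CRYBB1 lay at -0.02, and crybg1a and crybg1b lay right of 0.

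Of the 11 tested gamma M2 copies, 7 fell in homozygous against wild-type embryos and 4 were not called. Since reads from such similar copies may be assigned to the wrong one, the 26 copies were also counted as 1 gene. That sum was lower in homozygous pools, with a log2 fold change of -0.46 ± 0.09 (95% interval -0.66 to -0.25, edgeR adjusted p = 0.00238) and was called under every other setting tried. A pair of copies carried most of the class: crygm2d8 held 35.3% and crygm2d13 held 30.6% of all M2 counts.

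The copy crygm2d13 had 25.9, 28.3 and 22.0 CPM in homozygous pools, 33.2, 26.5 and 32.8 CPM in heterozygous pools, and 33.3, 36.5 and 36.2 CPM in wild-type pools. Its homozygous pools lay below the wild-type pools (-0.47 ± 0.10, edgeR adjusted p = 0.00186). The copy crygm2d8 had 30.2, 38.4 and 28.1 CPM in homozygous pools, 32.5, 37.9 and 30.3 CPM in heterozygous pools, and 32.6, 40.9 and 44.8 CPM in wild-type pools. These overlapped in all 3 genotypes, and the change of -0.29 ± 0.16 was not called (edgeR adjusted p = 0.189). Without homozygous replicate 2, crygm2d8 was called lower (edgeR adjusted p = 0.0346). Its share of M2 counts was 36.7, 39.1 and 38.2% in homozygous pools, 31.3, 39.3 and 31.6% in heterozygous pools, and 30.4, 34.5 and 36.5% in wild-type pools.

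Several copies with fewer counts had lower ratios to wild type. For crygm2d21 the pools had 3.995, 5.34 and 3.69 CPM when homozygous, 5.87, 5.03 and 5.25 CPM when heterozygous, and 6.58, 7.56 and 9.001 CPM when wild type (log2 fold change of homozygous to wild-type pools -0.83 ± 0.14, edgeR adjusted p = 1.70e-04). For crygm2d1, singled out after its values were seen, they had 2.97, 3.22 and 2.66 CPM when homozygous, 4.17, 3.51 and 3.35 CPM when heterozygous, and 5.77, 4.93 and 5.18 CPM when wild type (-0.84 ± 0.13, edgeR adjusted p = 5.61e-05). In both copies all mutant pools of either genotype lay below the wild-type pools. The copy crygm2d18 had 6.59, 7.85 and 6.73 CPM in homozygous pools, 9.64, 7.80 and 7.85 CPM in heterozygous pools, and 9.89, 9.80 and 10.3 CPM in wild-type pools (-0.50 ± 0.10, edgeR adjusted p = 7.15e-04). The copy crygm2d17 had 6.34, 7.41 and 5.23 CPM in homozygous pools, 10.53, 8.14 and 8.22 CPM in heterozygous pools, and 9.79, 9.87 and 8.96 CPM in wild-type pools (-0.58 ± 0.13, edgeR adjusted p = 0.00121). Both copies were lower in every homozygous pool than in any wild-type pool. The calls of crygm2d6 and crygm2d15 (edgeR adjusted p = 0.0452 and 0.0304) were lost under 10 and 4 other settings. The copy crygm2d16, not called here (edgeR adjusted p = 0.062), was called under 3 other settings.

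**Figure D3:**
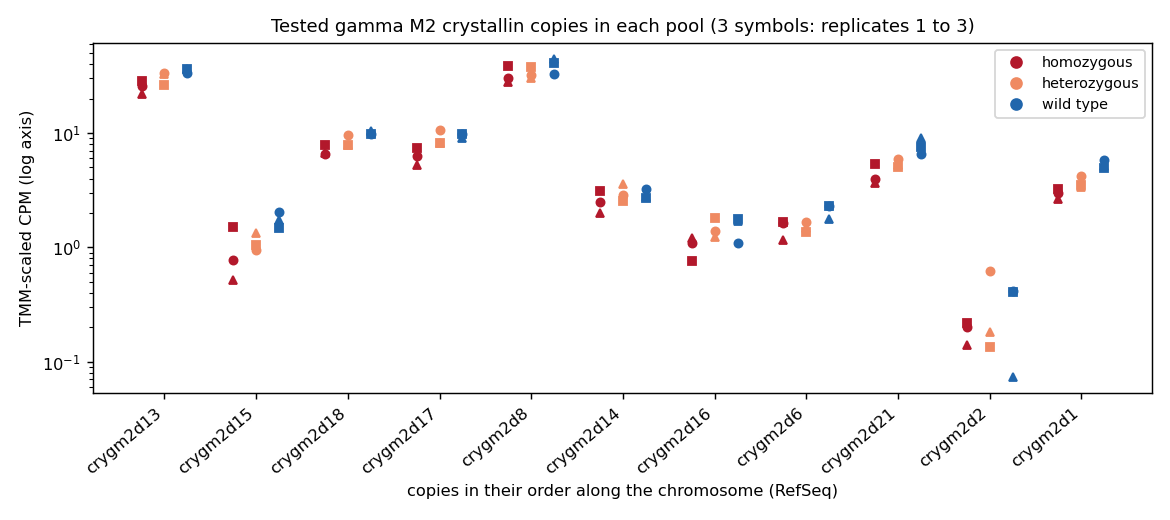
TMM-scaled CPM (y axis, log scale) of each tested gamma M2 copy (x axis, in chromosomal order) in each pool, coloured by genotype with a symbol per replicate. In crygm2d21, crygm2d1, crygm2d13 and crygm2d18 every homozygous pool lay below every wild-type pool, while crygm2d8 overlapped across genotypes.

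Among the 6 other gamma crystallins tested, 1 fell, 1 rose and 4 were not called in homozygous against wild-type embryos. CRYGN (ENSDARG00000030411), which encodes gamma N crystallin, a form between the beta and gamma families, had 83.3, 86.5 and 72.0 CPM in homozygous pools, 91.8, 82.3 and 88.5 CPM in heterozygous pools, and 94.96, 96.4 and 99.2 CPM in wild-type pools. All mutant pools lay below the wild-type pools, and the homozygous change of -0.26 ± 0.06 was called (edgeR adjusted p = 0.00238). The gene that rose, singled out after its values were seen, shares its symbol, CRYGN (ENSDARG00000102129). It had 32, 22 and 18 counts in homozygous pools, 20, 14 and 24 counts in heterozygous pools, and 6, 8 and 4 counts in wild-type pools. No wild-type library reached the count filter, so this gene was tested only because of its mutant pools and had to differ (log2 fold change 1.796 ± 0.47, edgeR adjusted p = 0.00457).

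The gamma M genes crygmx and crygmxl2 were not called in this comparison. The first had 23.9, 25.7 and 23.4 CPM in homozygous pools, 29.8, 27.2 and 26.1 CPM in heterozygous pools, and 25.5, 26.3 and 27.0 CPM in wild-type pools, with homozygous and wild-type pools overlapping. The second, shown after its values were seen, had 31.9, 35.5 and 27.6 CPM in homozygous pools, 33.1, 30.1 and 31.2 CPM in heterozygous pools, and 32.0, 35.9 and 38.0 CPM in wild-type pools, also overlapping. Their 95% intervals for homozygous against wild type, -0.25 to 0.03 and -0.34 to 0.03 on the log2 scale, both included 0. Without homozygous replicate 2, crygmxl2 was called lower (edgeR adjusted p = 0.0270). The fall of CRYGN (ENSDARG00000030411), -0.26, lay within the interval of crygmxl2 and just outside that of crygmx. Also uncalled were crygmxl1 and CRYGS (ENSDARG00000042992), with 127 and 260 counts in total. Their log2 fold changes were -1.09 (95% interval -2.31 to 0.13) and -0.23 (-1.12 to 0.66), so large changes in these genes could have been missed.

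Both tested crybg genes rose in homozygous against wild-type embryos; they too were singled out after their values were seen. The gene crybg1b had 79.2, 77.8 and 78.5 CPM in homozygous pools, 66.3, 69.2 and 71.6 CPM in heterozygous pools, and 61.6, 58.7 and 60.3 CPM in wild-type pools. The 3 genotypes did not overlap (homozygous to wild type 0.38 ± 0.05, edgeR adjusted p = 4.87e-06). The gene crybg1a had 133.2, 133.7 and 140.6 CPM in homozygous pools, 118.0, 120.7 and 124.9 CPM in heterozygous pools, and 115.5, 117.5 and 118.6 CPM in wild-type pools. Its homozygous pools stood above all others (0.21 ± 0.05, edgeR adjusted p = 9.35e-04), while heterozygous and wild-type pools overlapped.

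In heterozygous against wild-type embryos, 6 of the 30 alpha, beta and gamma crystallins fell, 1 rose and 23 were not called, against 14.4% of all genes called lower and 15.5% called higher (29.8% in all). The gene that rose was again the CRYGN gene tested only because of its mutant pools. Without heterozygous replicate 2, wild-type replicate 2 or wild-type replicate 3, only 3 were called lower. The median log2 fold change of the 30 was -0.16, against 0.0012 over all genes. The 30 included 13 in which all heterozygous pools lay below all wild-type pools, as did 20.9% of all genes (42.7% without overlap in either direction). The genes that fell were 4 beta crystallins and 2 M2 copies. Of these, crybb1l3 (-0.62 ± 0.15, edgeR adjusted p = 0.00431) and crygm2d1 (-0.52 ± 0.13, edgeR adjusted p = 0.00545) were called under every other setting that could test them.

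Calls of the other 4 depended on single libraries. CRYBA2 (ENSDARG00000030349) fell by 0.21 ± 0.06 on the log2 scale (edgeR adjusted p = 0.0216). It was not called without heterozygous replicate 2 (0.0944), wild-type replicate 2 (0.0614) or wild-type replicate 3 (0.0766). CRYBA2 (ENSDARG00000041925, adjusted p = 0.0410) and cryba1l2 (0.0472) lost the call under 7 and 9 other settings, and crygm2d21 (0.00983) without wild-type replicate 3 (0.0566). The low CRYGN gene (ENSDARG00000102129) again was higher (edgeR adjusted p = 0.0256), through the filter described above, and its call was lost under 4 leave-one-out fits. The summed M2 copies were lower by -0.24 ± 0.09 (95% interval -0.44 to -0.03), which was not called (edgeR adjusted p = 0.0828). Of the crybg genes, crybg1b rose (0.20 ± 0.05, edgeR adjusted p = 0.00459) and crybg1a was not called (edgeR adjusted p = 0.464).

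Between homozygous and heterozygous embryos, which were siblings, 4 of the 30 alpha, beta and gamma crystallins fell in homozygous pools, none rose and 26 were not called, against 19.4% of all genes called lower and 20.4% called higher (39.8% in all). The 4 genes, 13.3% of the 30, were thus a share under that background, and the count was 1 without homozygous replicate 1, homozygous replicate 3 or heterozygous replicate 1, and 7 without homozygous replicate 2. Of the 30, 28 had a negative sign, with a median of -0.15 against 0.0052 over all genes. In 5 of the 30 the homozygous pools all lay below the heterozygous pools, as did 24.7% of all genes (51.2% without overlap in either direction). The copy crygm2d17 fell, with no overlap between homozygous and heterozygous pools (-0.50 ± 0.13, edgeR adjusted p = 0.00452), and this call was made under every other setting. The calls of CRYBA2 (ENSDARG00000030349, edgeR adjusted p = 0.0328), crygm2d13 (0.0415) and crygmx (0.0286) were lost without 1 or more single libraries, among them homozygous replicate 3 (0.193 for that CRYBA2 gene and 0.108 for crygmx). For crygm2d13 the call was lost under 9 other settings, among them a fit of these genotypes only (0.0817) and the replicate block (0.101). The summed M2 copies differed by -0.22 ± 0.09 (95% interval -0.43 to -0.01), which was not called (edgeR adjusted p = 0.0883). Both crybg genes rose in homozygous against heterozygous pools, crybg1a by 0.16 (edgeR adjusted p = 0.00715) and crybg1b by 0.18 (0.00490).

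Across the 3 genotypes, the means of 22 of the 30 lens crystallins were ordered homozygous below heterozygous below wild type, among them 11 of 12 beta and 9 of 11 M2 genes. The same order was found in 19.8% of all genes tested. Only 1 of the 6 other gamma genes had it. The order counts differences of any size and was not tested. For CRYBB1 the means were 217.6 ± 15.2, 219.0 ± 13.9 and 220.1 ± 23.2 CPM (SD, n = 3 each), in that order. Between homozygous and heterozygous pools, 1 of 12 beta and 2 of 11 M2 genes were called. Because members shifted together between homozygous pools, the 22 genes are not independent observations.

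Beta and M2 crystallins also moved together between homozygous pools, as did beta crystallins between heterozygous pools. Homozygous replicate 2 was the highest of the homozygous pools in 12 of 12 beta and 10 of 11 M2 genes, and homozygous replicate 3 was the lowest in 11 of 12 beta and 9 of 11 M2 genes. In heterozygous pools replicate 1 was highest in 9 of 12 and replicate 2 lowest in 10 of 12 beta genes. In wild-type pools replicate 1 was lowest in 8 of 12 beta genes. The 11 M2 genes had no common order there, with replicates 1, 2 and 3 lowest in 4, 4 and 3. Such orders were not counted over all genes. The coefficient of variation of the summed beta crystallins was 10.1% over homozygous, 5.47% over heterozygous and 2.38% over wild-type pools, and that of the summed M2 copies was 14.6, 4.46 and 7.08%. For the crybg sum it was 1.95, 3.24 and 0.758%. What set the level of all crystallins in a pool, such as its exact age or lens size, was not tested.

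**Figure D4:**
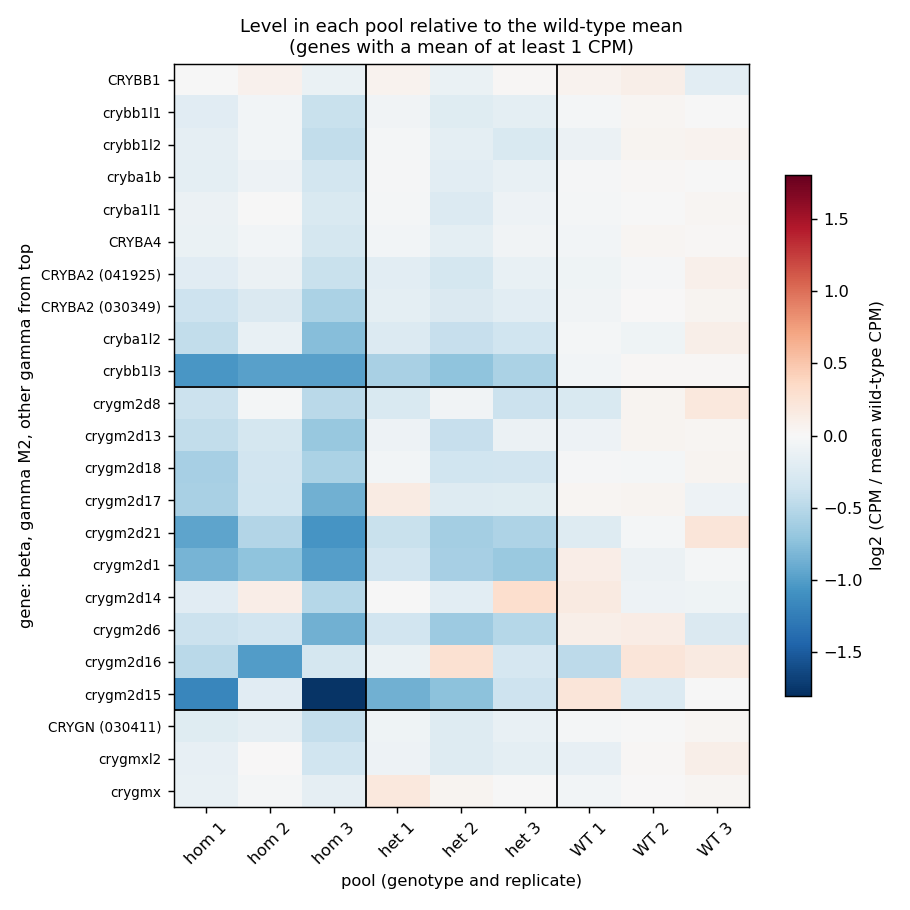
Log2 level (colour) of each beta and gamma crystallin averaging at least 1 CPM (y axis) in each pool (x axis), relative to its mean over the wild-type pools. Among homozygous pools, replicate 3 was the lowest in most beta and M2 genes and replicate 2 the highest.

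Several beta crystallin genes lie beside each other as pairs in the gene order of RefSeq assembly GRCz12tu, which is not the build of the counts and was used for neighbours only. The count ratio of CRYBB1 to its neighbour CRYBA4 was 2.01, 2.03 and 2.13 in homozygous pools, 2.00, 1.95 and 1.99 in heterozygous pools, and 2.02, 1.95 and 1.61 in wild-type pools. Only wild-type replicate 3 stood apart there, where CRYBB1 was low and CRYBA4 was not. The ratio of crybb1l1 to cryba1l1 was 1.49, 1.54 and 1.45 in homozygous pools, 1.56, 1.61 and 1.5 in heterozygous pools, and 1.59, 1.63 and 1.55 in wild-type pools, and the homozygous pools lay below the wild-type pools. The ratio of crybb1l2 to cryba1l2 tended the other way, with 18.0, 15.6 and 18.4 in homozygous pools, 17.1, 17.5 and 15.6 in heterozygous pools, and 13.99, 16.03 and 14.27 in wild-type pools, and homozygous and wild-type pools overlapped. The low crybb1l3 and CRYBA1 had a ratio of 2.94, 2.29 and 4.0 in homozygous pools, 3.56, 3.53 and 2.9 in heterozygous pools, and 3.67, 3.69 and 5.47 in wild-type pools, with overlap. None of these ratios was tested.

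The tested M2 copies formed a tandem array with other copies between them. Taken in that order from crygm2d13 to crygm2d1, the copies crygm2d13, crygm2d15, crygm2d18, crygm2d17 and crygm2d8 had log2 fold changes between homozygous and wild-type pools of -0.47, -0.87, -0.50, -0.58 and -0.29. The following copies crygm2d14, crygm2d16, crygm2d6, crygm2d21, crygm2d2 and crygm2d1 had -0.16, -0.59, -0.50, -0.83, -0.63 and -0.84. The sign was negative in all 11 tested copies, of which 7 were called.

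Other genes of the lens were read from lists chosen for this comparison. Of 22 tested lens fibre genes, none rose, 6 fell and 16 were not called in homozygous against wild-type embryos (median -0.11). That none rose stands beside 23.5% of all genes called higher. The 6 that fell were 27.3% of the list, near the 21.1% of all genes called lower. They include plaat1l, with 10, 4 and 4 counts in homozygous pools, 20, 16 and 8 counts in heterozygous pools, and 10, 16 and 32 counts in wild-type pools. No homozygous library of that gene reached the count filter, so it was tested only through the other pools. Their summed level was 154.6 to 192.2 CPM in homozygous pools, 179.7 to 209.9 CPM in heterozygous pools, and 206.5 to 217.6 CPM in wild-type pools. MIP, the fibre cell water channel, is the symbol of a pair of genes. The first (ENSDARG00000037285) averaged 33.2, 38.3 and 46.6 CPM in homozygous, heterozygous and wild-type pools (homozygous against wild type -0.49 ± 0.12, edgeR adjusted p = 0.0112; 0.0525 without wild-type replicate 3). The second (ENSDARG00000013963) averaged 34.72, 39.92 and 38.83 CPM in homozygous, heterozygous and wild-type pools and was not called in any comparison (homozygous against wild type -0.16, edgeR adjusted p = 0.285). The galectin-related GRIFIN of the lens averaged 6.13, 4.64 and 6.08 CPM in homozygous, heterozygous and wild-type pools. It was not called between homozygous and wild-type pools (0.02), was lower in heterozygous than in wild-type pools (-0.39, edgeR adjusted p = 0.00980) and higher in homozygous than in heterozygous pools (0.40, edgeR adjusted p = 0.00508).

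Of 18 tested transcription factor genes of the early lens, 5 fell, 2 rose and 11 were not called in homozygous against wild-type embryos. Their median log2 fold change was 0.05, against 0.02 over all genes. The 5 were 27.8% of the list, against 21.1% of all genes called lower. PAX6 (ENSDARG00000103379), a regulator of eye formation, averaged 100.02, 122.1 and 144.0 CPM in homozygous, heterozygous and wild-type pools (homozygous against wild type -0.53 ± 0.06, edgeR adjusted p = 8.97e-07). MAFA, a large Maf factor, fell by 0.60 ± 0.07 on the log2 scale (edgeR adjusted p = 1.26e-06), and SIX3 (ENSDARG00000054879), an eye-field factor, rose by 0.24. PAX6 and SIX3 are also expressed in the brain and retina, so these whole-embryo values are not lens levels alone. The lens factors foxe3 and pitx3 were not called in any comparison. PROX1 (ENSDARG00000055158) averaged 41.8, 34.9 and 42.8 CPM in homozygous, heterozygous and wild-type pools. It was not called between homozygous and wild-type pools (-0.03), was lower in heterozygous than in wild-type pools (-0.29, edgeR adjusted p = 0.00197) and higher in homozygous than in heterozygous pools (0.26, edgeR adjusted p = 0.00283).

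Markers of other tissues were counted in homozygous against wild-type embryos, beside the same 21.1% of all genes called lower and 23.5% called higher. Of 15 retina genes 3 fell, 3 rose and 9 were not called, shares near that background, and their sum was 810.4 to 869.5 CPM in homozygous pools, 809 to 838.4 CPM in heterozygous pools, and 895.9 to 971.2 CPM in wild-type pools. Of 19 muscle genes 13 fell, none rose and 6 were not called (median -0.40), which was 68.4% of the list against 46.7% of the 30 crystallins. Of 14 pigment genes 4 rose, 2 fell and 8 were not called, also near it, and their sum was 1084 to 1160 CPM in homozygous pools, 1075 to 1135 CPM in heterozygous pools, and 1008 to 1055 CPM in wild-type pools. Small heat shock protein genes, the family of the alpha crystallins, counted 3 of 7 that rose, 1 that fell and 3 that were not called, with hspb9 up by 0.84 ± 0.09 and HSPB1 up by 0.48 on the log2 scale. The heat shock sum was 163.8 to 184.1 CPM in homozygous pools, 152.9 to 182.8 CPM in heterozygous pools, and 118.0 to 128.3 CPM in wild-type pools. In heterozygous against wild-type embryos, 7 of the 15 retina genes fell, none rose and 8 were not called (median -0.20). These 7 were 46.7% of the list, against 14.4% of all genes called lower in that comparison. There 9 of 19 muscle genes fell, 47.4% of the list, and none rose. Of the 14 pigment genes 3 rose, none fell and 11 were not called, beside 15.5% of all genes called higher in that comparison. The part of these tissues and genes in the crystallin result was not tested.

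**Figure D5:**
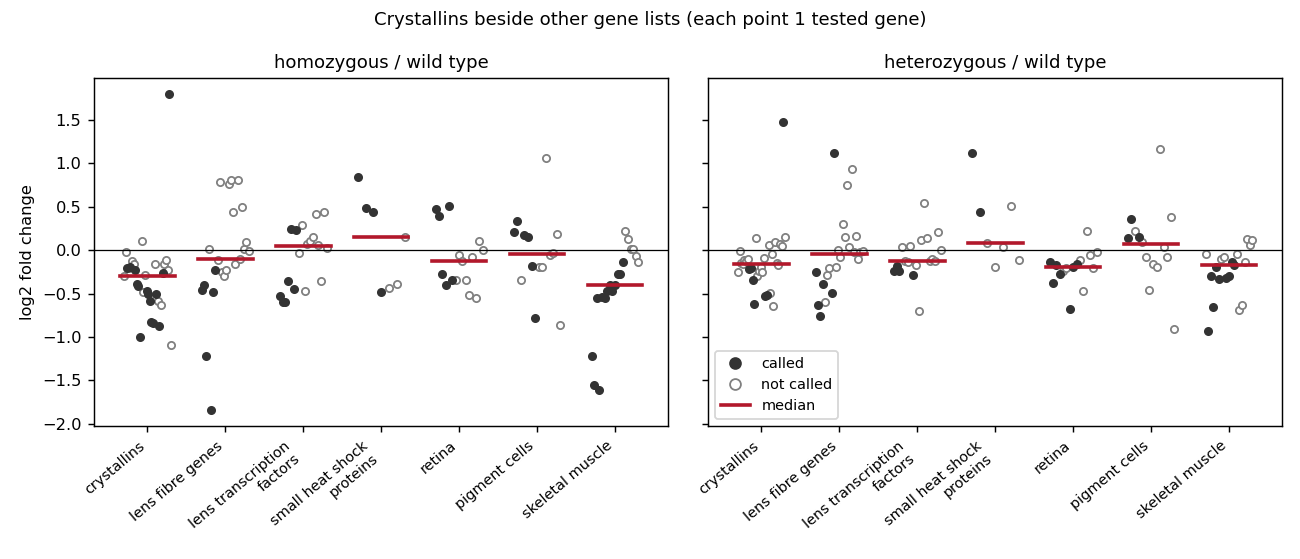
Log2 fold change (y axis) against wild-type pools of every tested alpha, beta or gamma crystallin and of every tested gene in each comparison list (x axis), in homozygous (left) and heterozygous (right) pools, with filled points for called genes and a line at each median. In homozygous pools the crystallin median lay at -0.29 and the muscle median at -0.40.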

How the data were processed

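RNA from 9 pools of whole zebrafish embryos was sequenced, with 3 pools each of homozygous, heterozygous and wild-type npc2 genotype. The authors deposited raw counts per Ensembl gene ID and library. Per the submitters' processing notes, the tools were cutadapt 1.18, HISAT2 2.1.0 and featureCounts 1.6.3, with genome build GRCz11; for the annotation release, strand setting and treatment of multiply matching reads, no statement is given in these sources. Between 96.3 and 97.5% of counts from 1 to 19 were even, so dividing all counts by 2 was tried as an alternative.

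Gene symbols came from a names table that covered 29201 of 32520 IDs. All genotypes were fitted together in R 4.3.3 with edgeR 4.0.16 (filterByExpr, TMM, robust quasi-likelihood F test, Benjamini-Hochberg adjustment over 20375 genes), tested on simulated data. Standard errors were the absolute log2 fold change over the square root of F, and levels are TMM-scaled CPM. Alternatives were DESeq2 1.42.0, voom in limma 3.58.1, other scalings and filters, a fit of the compared genotypes only, a replicate block, and leaving out each library. Deviations of same-numbered pools of different genotypes correlated at -0.0242 to 0.0848, under the 0.1 asked of every pair, so numbers were not treated as pairs.

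Members and lists were chosen with earlier results of these data known. Values per library are given for the alpha genes, for beta and gamma genes called in any comparison with a mean of at least 5 CPM, and for the most abundant gene of each class; exceptions are marked where they occur. Of the lists, named genes were drawn from the called ones with the lowest adjusted p, and uncalled ones were added after values were seen. Counting error alone is covered by the limit of 3 counts.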

Additional observations from a re-analysis of the deposited data

How the results depend on the processing

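Under 19 alternatives the number of calls varied most with single libraries; there were 17 in homozygous and 8 in heterozygous pools set against wild type and 6 in homozygous pools set against heterozygous ones, and no alternative moved the median of all genes by 0.1 on the log2 scale. With each library left out in turn, called members in these 3 comparisons numbered 13 to 22 (10 to 19 lower, 3 higher), 4 to 11 (3 to 9 lower, 1 to 2 higher) and 3 to 9 (1 to 7 lower, 2 higher). Without wild-type replicate 2, and likewise without replicate 3, 4 members were called in heterozygous pools set against wild type. Over 1 CPM, 1 gene was higher in heterozygous against wild-type pools, since the low CRYGN gene was then not tested. The summed M2 copies ranged from -0.58 to -0.37, -0.29 to -0.19 and -0.33 to -0.12 when libraries were left out. In heterozygous against wild-type pools they were called with DESeq2 (-0.24, adjusted p = 0.0209), limma-voom (-0.24, 0.0496) and a fit of these genotypes only (-0.23, 0.00624). In that comparison edgeR also called them without homozygous replicate 2 (-0.25, 0.00663) or homozygous replicate 3 (-0.25, 0.0145). In homozygous against heterozygous pools they were called with DESeq2 (-0.23, 0.0249) and by edgeR without homozygous replicate 2 (-0.33, 0.00137). With a replicate block they were -0.46, -0.24 and -0.23, and 16, 6 and 5 members were called. In homozygous against heterozygous pools every library correlated best with its own number (0.0565, 0.0565 and 0.0848), a hint from the data only. The crybg sum, without TMM scaling, was 0.30 in homozygous against wild-type pools.

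Among the genes and comparisons followed through the alternatives, signs turned only for genes that were not called, when 1 library was left out. Some members, such as cryba1l1 and crygmxl2, were followed only in homozygous against wild-type pools. The cause of the turned signs was not tested. Against wild type, the homozygous log2 fold change spanned -0.10 to 0.0385 for CRYBB1, -0.0616 to 0.0943 for GRIFIN, -0.0222 to 0.24 for CRYBB3 and -0.57 to 0.14 for CRYGS (ENSDARG00000042992), and the heterozygous one -0.0921 to 0.0483 for CRYBB1. Between homozygous and heterozygous pools it spanned -0.17 to 0.0679 for CRYAA, -0.14 to 0.0339 for crybb1l1, -0.0807 to 0.0632 for CRYBA2 (ENSDARG00000041925), -0.24 to 0.0661 for cryba1l2, -0.0607 to 0.0499 for CRYBB1, -0.19 to 0.0414 for crygm2d8 and -0.0305 to 0.0994 for HSPB1. Depth limits the 16 untested members with few counts, and also sparse tested ones such as CRYAA and crygm2d2, with 334 and 138 counts in total.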
